A study of Homo sapiens with 2 samples.

Results

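SOX7, SOX17 and SOX18 are the 3 SOXF genes, the subgroup of SRY-related transcription factors whose members drive endothelial fate. They were taken by symbol from the 36601 genes listed for each of 2 blood-generating heart-forming organoids (BG-HFOs), and all 3 had UMIs in both. Their levels were followed across endothelium, blood, endoderm and the other lineages of the organoid. UMIs are the unique molecular identifiers that mark single captured RNA molecules.

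Both organoids, named 32.7 and 33.10 by their labels, came from the human embryonic stem cell line hES3 NKX2.5-eGFP, which carries a fluorescent reporter at a cardiac gene, and were taken on day 14. Both had the same treatment: Matrigel embedding, BMP4, the WNT activator CHIR with BMP4 and bFGF, VEGF with bFGF, the WNT inhibitor IWP2, and a series of blood-supporting cytokines. There was 1 library per organoid and 1 cell line, so every comparison lies between cell classes within this condition, with n = 2 organoids.

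SOXF proteins bind DNA through a high-mobility-group box and act in part redundantly in forming vessels. SOX17 is known for its part in arterial identity, where it works with Notch signalling, in haemogenic endothelium, from which blood cells bud, and in definitive endoderm. SOX18 is known for its part in the start of lymphatic development and in endothelial barrier genes. SOX7 is known for its early part in haemato-endothelial precursors and is switched off as blood cells form.

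SOX7 (ENSG00000171056) lies on the minus strand at chr8:10723768-10730511 of GRCh38, as annotated in GENCODE 44. SOX17 (ENSG00000164736) lies on the plus strand at chr8:54457935-54460892, and SOX18 (ENSG00000203883) on the minus strand at chr20:64047582-64049639. All 3 are protein-coding. The SOX7 span shares 5113 bases on the same strand with a PINX1 gene model (ENSG00000258724) that is not among the genes counted, so molecules of that model within SOX7 could have been counted as SOX7. It also shares 1198 bases with a lncRNA (ENSG00000248896) on the opposite strand. No other annotated gene overlaps SOX17 or SOX18.

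The libraries held 16866 and 19948 barcodes (32.7 and 33.10, the order kept throughout) and 191152562 and 233818881 UMIs, of which 16792 and 19893 cells passed the cell filter. Cells were put into 10 lineage classes by how many genes of a marker list had at least 1 UMI, without use of the SOXF genes, and 8942 and 10830 cells fell into exactly 1 class. The libraries shared 100 barcodes, and only 2 of them were endothelial in both. Levels are given as CPM, the UMIs of a gene over all UMIs of a class on the counts-per-million scale. They are not corrected for gene length, so each gene is compared between classes and not with the other members.

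The endothelial class held most UMIs of SOX7 (67.3% and 61.1%), SOX17 (69.4% and 66.9%) and SOX18 (70.8% and 67.5%). It comprised 2870 and 3105 cells, each with at least 5 of the 8 marker genes of its list, with medians of 11467 and 9418 UMIs. SOX7 stood at 86.0 CPM in organoid 32.7 and 76.5 CPM in organoid 33.10. SOX17 stood at 176 and 147 CPM, and SOX18 at 557 and 461 CPM. All 3 genes were lower in organoid 33.10 than in organoid 32.7, yet in both organoids the endothelium lay far above every other class.

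**Figure D1:**
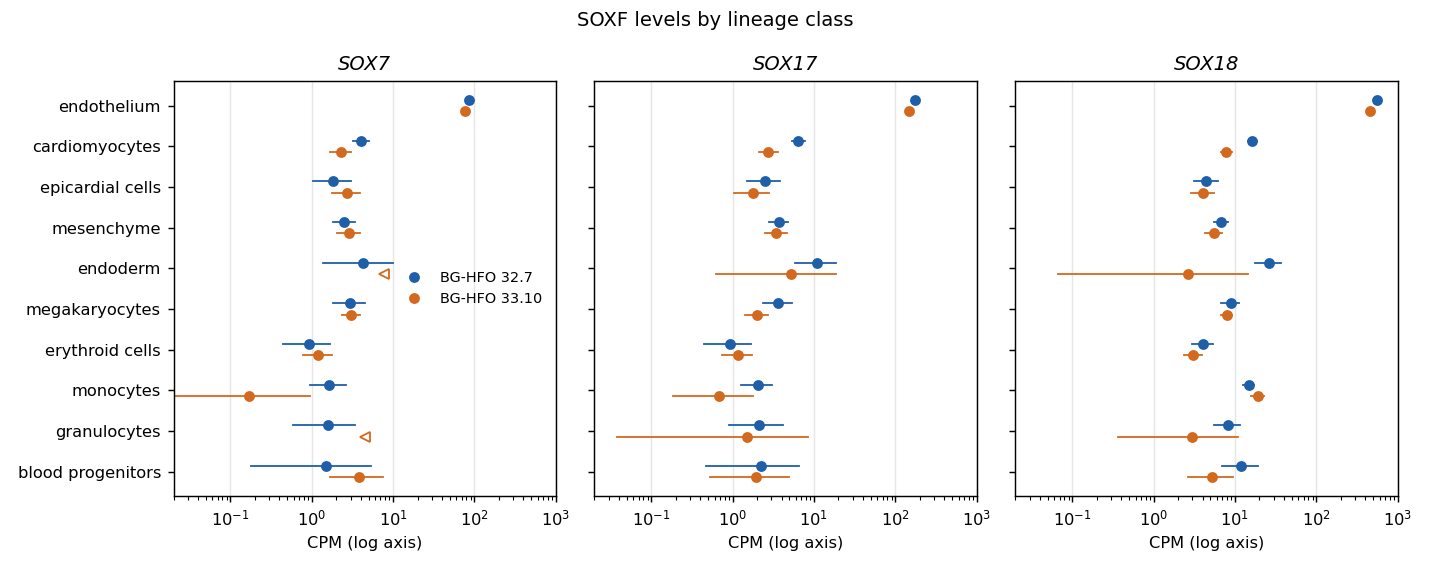
Level of each SOXF gene (CPM, log axis) in the 10 lineage classes. Points are the summed UMIs of a class in 1 organoid, bars the 95% Poisson intervals, which cover counting error only, and open triangles mark classes with no UMI, drawn at the level of 3 UMIs. The endothelium sits at 76.5 CPM or more for each gene, whereas every other class stays at 26.2 CPM or less.

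Cardiomyocytes, 2048 and 1964 cells, served as the reference, since SOXF genes are not known as part of their program. They held SOX7 at 4.07 and 2.27 CPM, SOX17 at 6.41 and 2.75 CPM, and SOX18 at 16.5 and 7.82 CPM. Each member was lower in cardiomyocytes than in endothelium in both organoids. The share of all genes that separate in this way was not counted. The log2 fold change of endothelium against cardiomyocytes was 4.65 ± 0.34 (SE) for SOX7, 5.11 ± 0.33 for SOX17 and 5.36 ± 0.37 for SOX18, corresponding to 25.1-fold, 34.6-fold and 41.0-fold. All 3 members passed the test (adjusted p between 3.02e-09 and 1.13e-08, quasi-likelihood test of edgeR, Benjamini-Hochberg adjusted over 20758 genes), where 24.8% of all genes tested were called higher and 53.9% in either direction. Against the endoderm class the endothelium was likewise higher for all 3 members (log2 fold change 4.67 ± 0.59 for SOX7, 4.08 ± 0.47 for SOX17 and 4.69 ± 0.45 for SOX18, highest adjusted p = 1.39e-05 by the same edgeR test), with 18.2% of genes called higher and 34.0% either way.

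Detection per cell followed the same order. A UMI of SOX7 was seen in 53.0% and 45.3% of endothelial cells, and in 2.88% and 2.19% of cardiomyocytes, a cell type that should lack it. For SOX17 the shares were 66.0% and 57.4% in endothelium against 4.25% and 1.99% in cardiomyocytes. For SOX18 they were 92.2% and 89.9% against 9.23% and 5.96%. The cardiomyocyte medians of 5962 and 8578 UMIs per cell were lower than the endothelial ones, so cells were also thinned to 4000 UMIs each, which left out 219 and 318 shallower endothelial cells. After thinning, SOX7 remained detected in 27.6% and 24.5% of endothelial cells, SOX17 in 42.4% and 37.8%, and SOX18 in 82.1% and 75.5%. In thinned cardiomyocytes SOX7 was detected in 2.22% and 1.09% of cells, SOX17 in 2.74% and 0.958%, and SOX18 in 6.004% and 2.88%, and 699 and 399 cells were too shallow to be thinned.

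The low levels outside the endothelium were then examined class by class. Mesenchymal cells showed 2.53 and 2.86 CPM of SOX7, 3.67 and 3.46 CPM of SOX17, and 6.77 and 5.49 CPM of SOX18. Epicardial cells lay close by, with 1.85 and 2.70, 2.47 and 1.77, and 4.44 and 4.05 CPM. Erythroid cells lay lower still, at 0.919 and 1.21 CPM of SOX7, 0.919 and 1.16 CPM of SOX17, and 4.04 and 3.07 CPM of SOX18. For SOX7 the 95% Poisson intervals of mesenchymal, epicardial and megakaryocyte cells overlapped in both organoids, so their order cannot be read at this depth.

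The low levels were set beside the summed level of the 8 endothelium list genes, which stood at 3673 and 3280 CPM in endothelium. Cardiomyocytes held 212 and 148 CPM of the list with 12.7 and 8.68 SOXF UMIs per 100 list UMIs, whereas endothelium held 22.3 and 20.8. Mesenchymal cells held 414 and 388 CPM of the list with 3.13 and 3.04 SOXF UMIs per 100, and megakaryocytes 996 and 953 CPM with 1.56 and 1.36. The order of the classes by list level was not their order by SOXF level. Whether a class makes list genes itself was not tested, so these ratios are descriptions only. When only cardiomyocytes with under 2 of these genes detected were kept, a step added after the levels were seen, SOX7 stood at 0.765 and 0.764 CPM, SOX17 at 1.95 and 0.705 CPM, and SOX18 at 5.14 and 3.11 CPM. The part of free RNA and of mixed droplets in the remaining level was not tested. Cells that passed the endothelium list together with another list were put in no class. There were 1151 and 1386 of them, with medians of 20231 and 22931 UMIs, and they held 18.7% and 23.1% of all SOX7 UMIs, 20.1% and 23.2% of SOX17 and 19.4% and 22.1% of SOX18.

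SOX17 is also a textbook factor of definitive endoderm, so the endoderm class was examined in turn. It comprised 116 and 18 cells, chosen by hepatic and foregut genes such as HNF4A, AFP and TTR. SOX17 had 13 and 2 UMIs in it, or 10.99 CPM (95% Poisson interval 5.85 to 18.8) and 5.23 CPM (0.633 to 18.9). SOX18 had 31 UMIs in organoid 32.7 and 1 UMI in organoid 33.10, and SOX7 had 5 and 0 UMIs, where 3 UMIs would correspond to 7.84 CPM. None of the 3 members passed the test against cardiomyocytes (adjusted p between 0.285 and 0.998 by the edgeR test, 0 of 3 at an unadjusted p under 0.05, and 0 of 3 called by DESeq2), where 23.2% of all genes were called. The SOX17 difference was 1.03 ± 0.64 on the log2 scale, and 2 SE either side span -0.25 to 2.32, so the direction could not be told at this depth. Over 8 alternatives with a test the SOX17 difference lay between 0.57 and 1.48 and was never called. In endoderm cells with under 2 endothelium genes, 49 and 15 in number, 4 and 2 SOX17 UMIs (5.83 and 6.22 CPM) and 3 and 0 SOX18 UMIs were left. Cardiomyocytes limited in the same way held SOX17 at 1.95 and 0.705 CPM. This difference was not tested.

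Genes that accompany SOX17 in endoderm were present in part. Of the 8 genes on a list of endoderm-linked genes, 6 could be tested between endoderm and cardiomyocytes. FOXA2, HHEX and PRDM1 were higher in endoderm, GATA4 and GATA6 lower, where 10.7% of all genes tested were higher and 12.5% lower. FOXA2, a pioneer factor of the endoderm, stood at 41.4 and 70.6 CPM in the endoderm class and at 0.112 and 0 CPM in cardiomyocytes. HHEX, a homeobox factor of foregut and early endothelium, stood at 79.5 and 83.7 CPM in endoderm and at 67.9 and 58.2 CPM in endothelium. GSC had no UMI in either organoid's endoderm, and neither had EOMES or CER1, all genes of the early endoderm.

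Within the endothelium, the members parted along the arterial to venous axis. Cells were called arterial or venous when at least 2 of 6 genes of the own list were detected and the own list led by at least 2 genes. The arterial list comprised CXCR4, GJA4, GJA5, HEY2, UNC5B and SEMA3G, and the venous list NR2F2, APLNR, NT5E, EPHB4, NRP2 and FLRT2. This gave 726 and 847 arterial and 763 and 840 venous cells, with medians of 11627 and 9278 against 11015 and 9821 UMIs. SOX17 stood at 240 and 202 CPM in arterial and at 64.1 and 59.7 CPM in venous cells, and SOX18 at 696 and 599 against 374 and 271 CPM. SOX7 showed no such split, at 92.1 and 82.0 CPM in arterial and 92.1 and 80.0 CPM in venous cells.

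The arterial against venous log2 fold change was 1.89 ± 0.26 for SOX17 (adjusted p = 4.47e-05, edgeR's quasi-likelihood test) and 1.06 ± 0.30 for SOX18 (adjusted p = 0.0232, edgeR), that is 3.696-fold and 2.08-fold. For SOX7 it was 0.07 ± 0.24 (adjusted p = 0.922, edgeR), and 2 SE either side span -0.41 to 0.55. Thus 2 of 3 members were higher in arterial cells, where 5.24% of the 20941 genes tested were higher, 7.62% lower and 12.9% either. The study had already named SOX17 a marker of its arterial cluster in these organoids, beside CXCR4 and GJA4 of the arterial list. A higher SOX17 level in arterial cells was therefore foreseeable. The sign of the SOX7 value turned with the gate, to -0.02 under a stricter and -0.03 under a looser one.

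**Figure D2:**
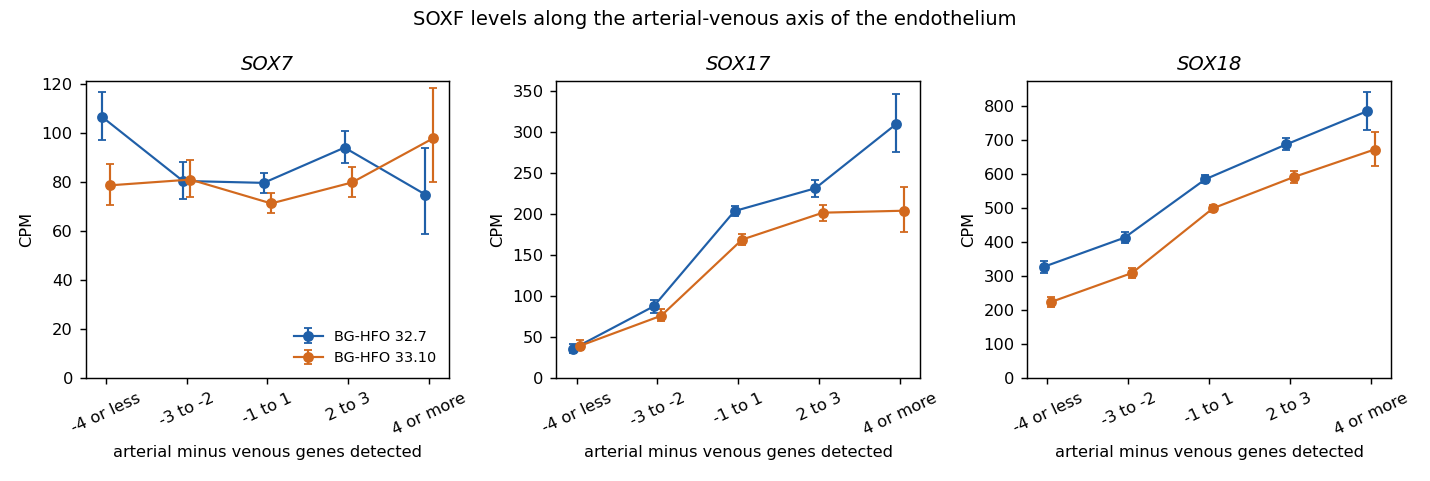
Level of each SOXF gene (CPM) in 5 bins of endothelial cells by the number of arterial minus venous list genes detected. Points are summed UMIs of 1 organoid with 95% Poisson intervals. SOX17 climbs from 35.2 to 310 CPM in organoid 32.7 and SOX18 from 326 to 783 CPM, whereas SOX7 moves between 71.3 and 107 CPM in no single direction.

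Binned by the difference between arterial and venous genes, SOX17 lay higher towards the arterial end, described here without a test. At a lead of 4 or more venous genes it stood at 35.2 and 39.2 CPM, at a lead of 2 to 3 venous genes at 87.2 and 75.8 CPM, and in the middle bin at 204 and 169 CPM. At a lead of 2 to 3 arterial genes it reached 231 and 202 CPM, and at 4 or more 310 and 204 CPM. The last step was visible in organoid 32.7 only, and this bin held 83 and 102 cells. SOX18 lay higher at each step in both organoids, from 326 and 223 CPM to 783 and 671 CPM. SOX7 was highest in the most venous bin of organoid 32.7 (107 CPM) and in the most arterial bin of organoid 33.10 (97.8 CPM).

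As a consequence the make-up of the family changed along the vessel axis. In arterial cells 8.96% and 9.28% of SOXF UMIs were SOX7 and 23.3% and 22.9% were SOX17. In venous cells SOX7 made up 17.4% and 19.5% and SOX17 only 12.1% and 14.5%. The 95% binomial intervals of the vessel classes did not overlap for either gene in either organoid. They treat each UMI as independent, so they cover counting error only and not the spread between cells. The share of SOX18 stayed between 66.0% and 70.5%.

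The same pattern held at the level of single cells. After thinning, SOX17 was detected in 54.4% and 48.4% of arterial cells but in 20.3% and 18.1% of venous cells. SOX18 was detected in 88.4% and 85.4% of arterial and in 72.2% and 60.0% of venous cells, and SOX7 in 29.1% and 24.1% against 28.4% and 26.6%. Cells with no SOXF UMI after thinning made up 3.97% and 5.42% of arterial and 17.6% and 24.7% of venous cells. All 3 genes together were seen in 14.6% and 10.6% of arterial and 4.12% and 3.23% of venous cells. Within the arterial class, SOX17 and SOX18 were found together in 49.1% and 41.3% of cells, where independent detection would give 48.1% and 41.3%, and SOX7 and SOX17 in 15.3% and 11.9% against 15.8% and 11.7%. With SOX18 seen in most arterial cells the joint share has little room to depart from that value. The odds ratio of SOX17 with SOX18 was 1.49 and 0.987 in arterial, 1.24 and 0.999 in venous and 1.73 and 1.53 in all thinned endothelial cells, and that of SOX7 with SOX17 in all of them 0.921 and 1.00.

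**Figure D3:**
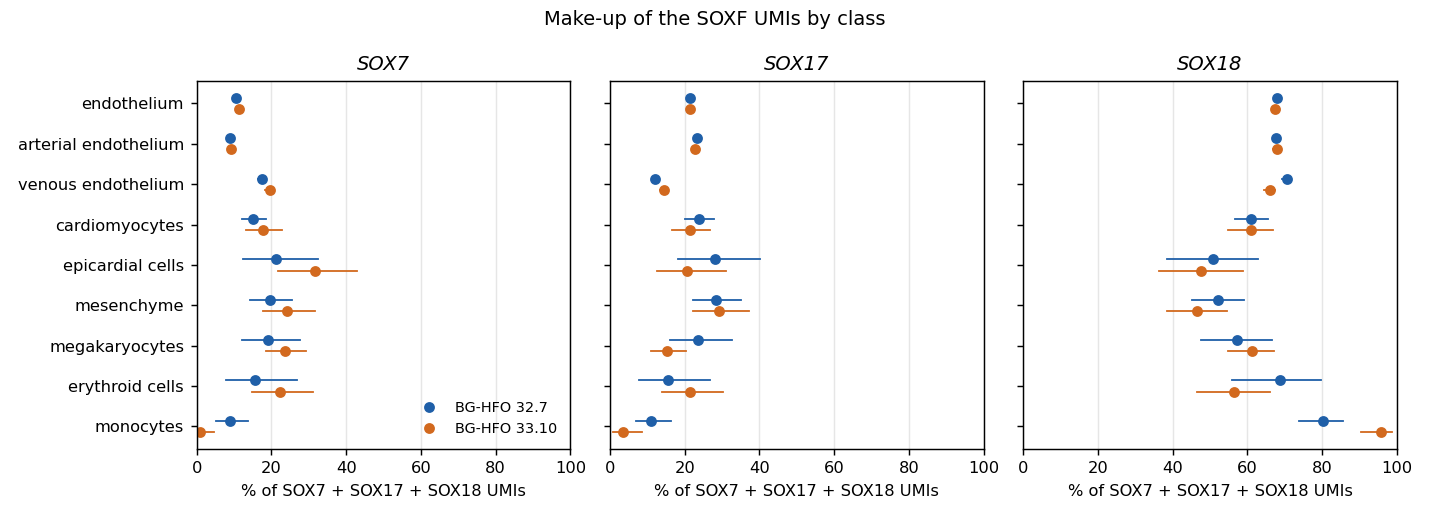
Share of each gene among the UMIs of SOX7, SOX17 and SOX18 (percent) in endothelium, its arterial and venous cells and 6 other classes. Points are 1 organoid each with exact 95% binomial intervals for counting error. Venous cells hold 17.4% and 19.5% SOX7 UMIs against 8.96% and 9.28% in arterial cells, and monocytes hold 80.2% and 95.7% SOX18 UMIs.

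Genes linked to SOXF factors in endothelium were followed from a list of 18. Against cardiomyocytes, 15 of them were higher in endothelium and 2 lower, where 24.8% of all genes tested were higher and 29.1% lower. Several of the 18, such as CDH5, are themselves endothelial genes, so a high count in a class gated on endothelial genes was foreseeable. Any part of SOXF factors in it was not tested. The median log2 fold change of the 18 was 4.18, where the median of all genes was -0.07. CDH5, the vascular cadherin, stood at 310 and 257 CPM in endothelium and 11.5 and 5.55 CPM in cardiomyocytes. CLDN5, a tight-junction claudin described as a SOX18 target, stood at 81.3 and 61.0 CPM against 2.51 and 0.724 CPM. The 2 lower genes were PROX1, the lymphatic regulator and a known SOX18 target (26.0 and 21.3 against 44.3 and 43.2 CPM), and VCAM1, an adhesion molecule (0.213 and 0.198 against 48.4 and 46.7 CPM). RBPJ, the DNA-binding partner of Notch, did not pass.

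Between arterial and venous cells, 6 of these 18 genes were higher in arterial cells and 1 lower, where 5.24% of all genes tested were higher and 7.62% lower. The median log2 fold change of the 18 was 0.35 against -0.02 over all genes. Some of the 18, such as EFNB2, are themselves arterial genes, so higher levels in a class gated on arterial genes were foreseeable. Any part of SOXF factors in these differences was not tested. DLL4, a Notch ligand with a SOXF-bound enhancer, stood at 188 and 171 CPM in arterial and 47.0 and 44.5 CPM in venous cells. NOTCH4 stood at 220 and 202 against 83.9 and 84.4 CPM, and EFNB2, the arterial ephrin ligand, at 734 and 716 against 163 and 139 CPM. HEY1, a Notch target, FLT1 and NOTCH1 were the others that were higher. TEK, the angiopoietin receptor, was the gene that was lower, at 52.7 and 52.0 against 242 and 267 CPM. PROX1 (21.9 and 19.2 against 30.4 and 21.3 CPM), CDH5 (332 and 265 against 317 and 274 CPM) and CLDN5 (87.4 and 69.9 against 76.4 and 54.4 CPM) did not pass.

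The genes whose pattern over the 10 classes of both organoids lay closest to each member were sought among 10667 genes with at least 20 CPM in a class. For SOX17 these were DLL4 (Pearson's r = 0.967 on log2(CPM + 1) over 20 points), NOTCH4, MCAM, PLEKHG1 and ADGRL4. For SOX7 they were PLVAP (0.969), DIPK2B, SHE, NOX4 and ROBO4. For SOX18 they were ADCY4 (0.982), THSD1, CLEC14A, CLEC1A and GPR4, of which CLEC14A was itself used to define the class. The members resembled each other less closely, at 0.914 for SOX17 with SOX7, 0.905 for SOX17 with SOX18 and 0.891 for SOX18 with SOX7. These values are descriptions, since the points share 2 libraries and the endothelium dominates them.

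Endothelial cells with 3 or more of 5 genes known from the endocardium, the lining of the heart chambers, were set beside the others as a description. There were 515 and 494 of them, deeper than the rest, with medians of 16409 and 14330 against 10152 and 8509 UMIs. SOX17 stood at 136 and 111 CPM in them and at 190 and 158 CPM in the others, and SOX18 at 465 and 385 against 587 and 484 CPM. SOX7 ran the other way, at 93.1 and 82.4 against 83.7 and 74.7 CPM. These genes alone do not establish the cells as endocardium, and the study reports a major loss of the endocardial-like layer in BG-HFOs. The cells were not divided by vessel identity.

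To look at haemogenic endothelium, endothelial cells with at least 1 UMI of RUNX1, the regulator of the endothelial-to-haematopoietic transition, were compared with those without, leaving out cells with any UMI of 6 blood genes, among them ITGA2B and PTPRC. This left 187 and 177 RUNX1-positive and 2344 and 2436 RUNX1-negative cells, with medians of 15057 and 12191 against 11037 and 8805 UMIs. Only 9 and 12 of the RUNX1-positive cells had 3 or more RUNX1 UMIs. The part of free RNA and of mixed droplets in the RUNX1 UMIs was not tested. A RUNX1 UMI alone does not establish a cell as haemogenic endothelium. SOX17 stood at 149 and 141 CPM in RUNX1-positive and at 183 and 150 CPM in RUNX1-negative cells. SOX18 stood at 517 and 401 against 574 and 483 CPM, and SOX7 at 88.5 and 70.5 against 87.2 and 79.7 CPM.

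SOX17 and SOX18 thus lay lower in the RUNX1-positive cells of both organoids, but did not pass the test. The 8 endothelium list genes were also lower in RUNX1-positive cells, at 3444 and 3004 against 3748 and 3402 CPM. SOXF UMIs per 100 list UMIs were 21.9 and 20.4 against 22.5 and 20.9. The log2 fold change was -0.34 ± 0.25 for SOX17, -0.34 ± 0.29 for SOX18 and -0.21 ± 0.26 for SOX7 (all adjusted p at least 0.963 by the edgeR test). With 2 SE either side, the SOX17 difference spans -0.84 to 0.17. The median over all genes tested was -0.09, and the share of genes lower in both organoids was not counted. No member was called, 0 of 3 had an unadjusted p under 0.05, and DESeq2 called 0 of 3. Both classes come from the same organoids, and with the organoid as a replicate block 2 of 3 had an unadjusted p under 0.05, SOX17 (-0.33 ± 0.14, adjusted p = 0.495, edgeR) and SOX18 (-0.35 ± 0.16, adjusted p = 0.531, edgeR), while 0 of 3 were called. Over all genes the fit without the block called only 5, or 0.0246%, all higher in RUNX1-positive cells, with 1025 at an unadjusted p under 0.05. With the block, 6 of 20297 genes were called and 1819 had an unadjusted p under 0.05. The 5, given after their values were seen, were RUNX1, which defined the class, PDGFRB, CCL7, IL1RAPL1 and SOX9. None of the 18 linked genes was called. DESeq2 called 31 genes of the whole table.

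The few cells with 3 or more RUNX1 UMIs, 9 and 12 in number, held SOX17 at 70.7 CPM (95% Poisson interval 36.5 to 123) and 78.7 CPM (45.0 to 128). Their SOX18 level was 489 and 231 CPM, and SOX7 stood at 70.7 and 19.7 CPM. These SOX17 levels were below those of all RUNX1-positive cells in both organoids. The intervals cover counting error only and not the spread between cells, and with so few cells no test was made. When RUNX1-positive cells were divided by vessel identity, the arterial ones held SOX17 at 157 and 220 CPM and the venous ones at 48.9 and 67.0 CPM, as against 248 and 199 CPM and 69.1 and 58.1 CPM in RUNX1-negative cells. Cells with both identities held 195 and 145 CPM when RUNX1-positive against 207 and 179 CPM, and cells with neither 125 and 59.1 against 243 and 178 CPM. SOX17 was thus lower in RUNX1-positive cells of all 4 divisions in organoid 32.7, and in organoid 33.10 lower in the divisions with both or neither identity and higher in the arterial and venous ones. The RUNX1-positive values rest on 10 and 8 SOX17 UMIs for neither identity and 36 and 46 for venous cells. These differences were not tested.

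**Figure D4:**
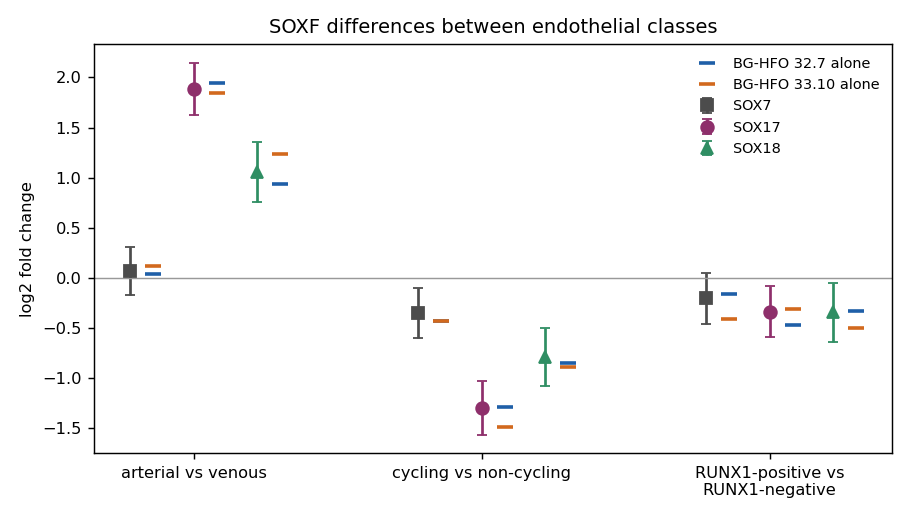
Log2 fold change of each SOXF gene in 3 comparisons within the endothelium. Symbols with bars are the edgeR estimate over both organoids ± SE, and dashes are each organoid alone. SOX17 lies at 1.89 for arterial against venous and at -1.30 for cycling against non-cycling cells, and all 3 genes lie within -0.34 and -0.21 for RUNX1-positive against RUNX1-negative cells.

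Cycling endothelial cells, with at least 3 of 7 mitotic genes detected, held less SOX17. There were 235 and 287 of them, against 2504 and 2667 cells with at most 1 such gene, and they were deeper, with medians of 17052 and 15094 against 11175 and 8917 UMIs. SOX17 stood at 90.2 and 65.5 CPM in cycling and at 191 and 163 CPM in non-cycling cells. SOX18 stood at 376 and 300 against 586 and 495 CPM, and SOX7 at 75.3 and 65.3 against 87.8 and 78.3 CPM. All 3 genes were lower in the cycling cells of both organoids. The share of all genes lower in both was not counted, and the median log2 fold change of all genes was -0.10. The 8 endothelium list genes were also lower in cycling cells, at 2799 and 2362 against 3809 and 3470 CPM. SOXF UMIs per 100 list UMIs were 19.4 and 18.2 in cycling against 22.7 and 21.2 in non-cycling cells.

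The log2 fold change of cycling against non-cycling cells was -1.30 ± 0.27 for SOX17 (adjusted p = 0.0031, edgeR's quasi-likelihood test), the 1 member of 3 called lower, where 3.97% of the 20262 genes tested were lower, 5.29% higher and 9.26% either. It was -0.79 ± 0.29 for SOX18 (adjusted p = 0.103) and -0.35 ± 0.25 for SOX7 (adjusted p = 0.435), both by the same edgeR test. With the organoid as a replicate block, SOX18 also passed (adjusted p = 0.00141, edgeR), as it did under a stricter gate (adjusted p = 0.018) and without the filter on low counts (adjusted p = 8.17e-06). Over all alternatives its adjusted p lay between 8.17e-06 and 0.212.

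More of the cycling cells were venous (100 and 138) than arterial (32 and 22). The levels were therefore also set side by side within each vessel class, where cycling against non-cycling cells was not tested. SOX17 stood at 131 and 121 CPM in cycling and 250 and 205 CPM in non-cycling arterial cells, and at 43.5 and 43.2 against 67.9 and 68.4 CPM in venous cells. SOX7 in arterial cells stood at 83.1 and 82.9 CPM in cycling against 92.4 and 81.7 CPM in non-cycling cells, so not lower in organoid 33.10. SOX17 was lower in cycling cells of both vessel classes in both organoids. The difference between the vessel classes in this effect was -0.33 ± 0.44 for SOX17, -0.53 ± 0.46 for SOX18 and 0.06 ± 0.38 for SOX7, and none was called (lowest adjusted p = 0.807, edgeR, 0 of 3 at an unadjusted p under 0.05 and 0 of 3 by DESeq2), where 0.0894% of genes were, 0.0834% as higher and 0.00596% as lower. Of the 18 linked genes, 5 were lower in cycling cells and none higher, where 3.97% of all genes tested were lower and 5.29% higher. Among the 5 were DLL4 (75.8 and 64.7 against 138 and 120 CPM) and CLDN5 (41.4 and 31.1 against 87.2 and 65.5 CPM).

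In blood cells the members were at low levels. Megakaryocytes, the platelet-forming cells, showed SOX7 at 2.96 and 3.05 CPM, SOX17 at 3.66 and 1.98 CPM, and SOX18 at 8.87 and 7.93 CPM. In the 189 and 521 megakaryocytes with under 2 endothelium genes, SOX17 stood at 18.6 and 1.98 CPM, from 13 UMIs in 9 cells and 5 UMIs in 5 cells. No member passed in megakaryocytes against cardiomyocytes (lowest adjusted p = 0.261, quasi-likelihood test of edgeR, 0 of 3 at an unadjusted p under 0.05 and 0 of 3 by DESeq2), where 57.5% of all genes were called and 25.8% were called higher. Blood progenitors, 77 and 114 cells, held 2 and 8 UMIs of SOX7, 3 and 4 of SOX17, and 16 and 11 of SOX18, the last corresponding to 12.0 CPM (95% Poisson interval 6.86 to 19.5) and 5.29 CPM (2.64 to 9.47). None was called there either (lowest adjusted p = 0.221, edgeR, 0 of 3 at an unadjusted p under 0.05 and 0 of 3 by DESeq2), where 46.6% of all genes were called and 26.9% were called lower. Granulocytes held 6 and 0 UMIs of SOX7, 8 and 1 of SOX17, and 31 and 2 of SOX18.

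SOX18 was examined further in the monocyte class, which was gated on CD14, C1QA, CSF1R, AIF1, TYROBP and FCER1G and comprised 654 and 347 cells. SOX18 had 154 and 112 UMIs there, or 14.8 and 19.2 CPM, and was seen in 14.7% and 16.1% of cells, against 6.36% and 4.74% of megakaryocytes and 5.22% and 3.32% of erythroid cells. After thinning, the shares were 5.03% and 5.41% in monocytes, 2.73% and 2.39% in megakaryocytes and 2.44% and 1.13% in erythroid cells. Cardiomyocytes, at 16.5 and 7.82 CPM, lay above the monocytes in organoid 32.7 and below them in organoid 33.10, and the interval of blood progenitors in organoid 32.7 held the monocyte value. The other members were lower in the monocytes of both organoids than in their cardiomyocytes. SOX7 had 17 and 1 UMIs (1.64 and 0.171 CPM) and SOX17 had 21 and 4 UMIs (2.02 and 0.686 CPM) in the same cells.

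The ratio between the genes was therefore not that of the endothelium. SOX18 made up 80.2% (exact 95% binomial interval 73.9 to 85.6) and 95.7% (90.3 to 98.6) of SOXF UMIs in monocytes, against 68.0% and 67.4% in endothelium, 57.3% and 61.2% in megakaryocytes, and 76.2% (52.8 to 91.8) and 47.8% (26.8 to 69.4) in blood progenitors. In monocytes with under 2 of the 8 endothelium genes detected, 342 and 172 cells, SOX18 had 43 and 34 UMIs (10.9 and 17.7 CPM), SOX7 had 4 and 0, and SOX17 had 6 and 0. Their median depth was 8712 and 8306 UMIs, below the 12359 and 12916 of all monocytes. CDH5 stood at 6.16 and 2.91 CPM and CLDN5 at 0.289 and 0.343 CPM in the monocyte class as a whole.

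Against megakaryocytes, a comparison added after these values were seen, SOX18 in monocytes lay at a log2 fold change of 0.80 ± 0.37 (adjusted p = 0.0907, edgeR) and SOX7 was -1.67 ± 0.53 (adjusted p = 0.0164, edgeR), whereas SOX17 lay at -0.95 ± 0.53 (adjusted p = 0.159, edgeR). Thus 1 of 3 members was called, lower, where 45.5% of all genes were called and 23.8% were called lower. With the organoid as a replicate block all 3 passed (SOX18 adjusted p = 0.0364, SOX17 adjusted p = 0.0466 and SOX7 adjusted p = 0.00954, edgeR). That fit called 10619 of the 20758 genes tested. The SOX18 difference was 1.64 under a stricter gate (adjusted p = 0.00318) and was 0.07 under a looser one (adjusted p = 0.903). The SOX7 call was lost under the stricter gate (adjusted p = 0.102) and without cells above 3 times the median UMIs (adjusted p = 0.0982).

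The share of SOX7 in the family differed among the other classes. It accounted for 21.1% and 31.7% of SOXF UMIs in epicardial cells, 19.5% and 24.2% in mesenchymal cells and 19.1% and 23.5% in megakaryocytes, as against 10.5% and 11.2% in endothelium. It was 10.2% and 0% in endoderm, 13.3% and 0% in granulocytes and 9.52% and 34.8% in blood progenitors, where organoid 33.10 had 3, 3 and 23 SOXF UMIs. SOX7 made up 15.1% and 17.7% in cardiomyocytes, the reference class, 15.6% and 22.2% in erythroid cells and 8.85% and 0.855% in monocytes. The lower interval bounds of mesenchymal cells (14.3% and 17.7%) and megakaryocytes (12.2% and 18.5%) lay above the endothelial value in both organoids. So did those of epicardial cells (12.3% and 21.9%) and cardiomyocytes (12.0% and 13.3%). These intervals cover counting error only. In megakaryocytes with under 2 endothelium genes, SOX7 made up 10.5% (1.30 to 33.1) and 16.7% (3.58 to 41.4) of 19 and 18 SOXF UMIs, intervals that held the endothelial value. In such mesenchymal cells it made up 22.5% (13.5 to 34.0) and 29.3% (18.1 to 42.7). PINX1, counted as ENSG00000254093, stood at 32.2 and 35.5 CPM in endothelium, 14.8 and 15.3 CPM in mesenchymal cells and 9.30 and 9.65 CPM in megakaryocytes. Its part in the SOX7 counts was not tested.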

How the data were processed

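Droplet 3' single-cell RNA-seq of 2 BG-HFOs was analysed from the gene by barcode counts as deposited. Per the file headers these UMI counts were made by the authors with Cell Ranger 7.0.0, before the study's depth equalisation, ambient RNA correction and filtering. The study's cell filter was applied here (50 to 11000 genes, under 30% mitochondrial UMIs). No doublet caller was run; leaving out cells above 3 times the median UMIs was tried instead.

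Cells entered a lineage class when enough list genes had a UMI and no other list passed, epicardial cells and mature myeloid cells being allowed the mesenchymal and progenitor lists. UMIs were summed per organoid and class (at least 10 cells in each organoid) and tested with edgeR 4.0.16 (filterByExpr, TMM, quasi-likelihood test, class as the only term, Benjamini-Hochberg adjustment, threshold 0.05), checked on simulated counts. Classes of 1 organoid come from the same organoid, and in 25 of 45 pairs of lineage classes the deviations from the class means correlated above 0.1 (median 0.12), so the organoid was also fitted as a block. Organoids were cultured independently. Members and lists were chosen with earlier results of these data known, and the gate thresholds were set after the data were seen. Alternatives were another scaling, no count filter, DESeq2 1.42.0, the block, each organoid left out, other gates and other cell filters. Named genes were the members, 16 other SOX genes, 18 SOXF-linked and 8 endoderm-linked genes, and the 5 genes most like each member. Cells were thinned without replacement to 4000 UMIs. Not every gene of the marker lists is reported here.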

Additional observations from a re-analysis of the deposited data

How the results depend on the processing

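The endothelial excess of all 3 members over cardiomyocytes and over endoderm, and the arterial excess of SOX17 and SOX18, kept their direction and call under every alternative with a test. With 2 organoids, a value from 1 organoid alone has no test, and the low classes rest on few UMIs. The cause of the changes below was not tested.

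Against cardiomyocytes, SOX7 in endoderm turned to 0.092 with RLE scaling, 0.049 with DESeq2, 0.0038 under the stricter gate and 0.57 without cells above 3 times the median UMIs. SOX18 in endoderm turned to -0.41 (stricter gate) and -0.21 (looser gate). In megakaryocytes, SOX17 turned to 0.31 and 0.81 and SOX18 to 0.20 and 0.58 under the stricter and looser gates. In blood progenitors, the looser gate gave 1.66 for SOX7, 0.15 for SOX17 and 0.43 for SOX18. The arterial against venous value of SOX7 was -0.021 and -0.031 under the stricter and looser gates. The SOX7 difference in cycling effect between vessel classes turned to -0.10 without the count filter and -0.48 without high-UMI cells.

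SOX18 in cycling cells passed at -0.86 without the count filter, -0.79 with the organoid as a replicate block and -0.73 under the stricter gate. In monocytes against megakaryocytes, SOX7 no longer passed at -1.51 (stricter gate) and -1.26 (without high-UMI cells), SOX17 passed at -1.05 (block) and -2.08 (looser gate), and SOX18 passed at 0.85 (no count filter), 0.71 (block) and 1.64 (stricter gate). The block changed no other member's call.

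The number of genes past the threshold moved by over 1.5 times without high-UMI cells for endoderm against cardiomyocytes (3014 from 4820), endothelium against endoderm (4680 from 7057) and cycling cells (1226 from 1876). The looser gate gave 4205 from 9673 for blood progenitors. The block gave 4393 from 2694 for arterial against venous and 3598 from 1876 for cycling cells. For RUNX1-positive cells the count of 5 became 113 without the count filter, 31 with DESeq2 and 1 under either gate. For the cycling difference between vessel classes the count of 15 became 26 with RLE, 187 without the count filter, 101 with DESeq2, 40 with the block, and 1 under the looser gate or without high-UMI cells.

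With 1 organoid left out, the log2 fold change against cardiomyocytes ranged from 0.64 to 0.75 for SOX17 and from -1.86 to 0.65 for SOX18 in endoderm, from -0.50 to -0.23 for SOX17 in megakaryocytes, and from -0.60 to -0.53 for SOX18 in progenitors. Endothelium against endoderm ranged from 4.00 to 5.06 for SOX17 and from 4.41 to 7.71 for SOX18. RUNX1-positive cells gave -0.41 to -0.16 for SOX7, -0.47 to -0.31 for SOX17 and -0.50 to -0.33 for SOX18. In CPM, SOX7 of organoid 32.7 was slightly higher in RUNX1-positive cells (88.5 against 87.2). The fold changes are TMM-scaled and the CPM are not. Cycling cells gave -0.43 in both for SOX7, -1.49 to -1.29 for SOX17 and -0.89 to -0.85 for SOX18, and the difference between vessel classes 0.10 to 0.13 for SOX7 and -0.31 to -0.22 for SOX17. Monocytes against megakaryocytes gave -4.27 to -1.08 for SOX7 and -1.71 to -1.08 for SOX17. SOX7 in endoderm has no value without organoid 32.7, since no UMI is left. Blood progenitors, and the cycling difference between vessel classes, have no value under the stricter gate, where too few cells remain.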

Other observations

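Other SOX genes outside the SOXF group also differed within and around the endothelium. Of 16 listed, 9 could be tested against cardiomyocytes, with 5 higher and 4 lower in endothelium, where 24.8% of all genes were higher and 29.1% lower. SOX5, a SOXD factor, stood at 697 and 768 CPM in endothelium. It was higher in arterial than in venous cells (log2 fold change 0.90 ± 0.23, adjusted p = 0.0106, edgeR), as were SOX11 (1.14 ± 0.25, adjusted p = 0.00349, edgeR) and SOX8 (1.17 ± 0.36, adjusted p = 0.0343, edgeR), making 3 of 9 where 5.24% of all genes were. SOX11 and SOX5 were lower in cycling cells (-0.97 ± 0.29 with adjusted p = 0.0426 and -0.71 ± 0.21 with adjusted p = 0.039, edgeR).

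SOX9, a SOXE factor of cartilage and valve tissue, was among the 5 genes higher in RUNX1-positive endothelium. It had 9 and 18 UMIs there (2.97 and 6.97 CPM) and 16 and 19 UMIs in RUNX1-negative cells (0.537 and 0.729 CPM), a log2 fold change of 2.79 ± 0.45 (adjusted p = 0.0449, edgeR) that rests on few molecules. Only 1 gene passed in this comparison under the stricter gate, and only 1 under the looser gate. Whether SOX9 kept its call under the alternatives was not followed. In epicardial cells SOX9 stood at 20.9 and 23.1 CPM.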
